A study of Mus musculus with 36 samples.

Results

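Replication-dependent histone genes were followed in fetal mouse neural stem cells (NSCs) and in the extracellular vesicles (EVs) that the cells released. The group was set by gene symbol (H1f1 to H1f5, and all numbered H2ac, H2bc, H3c and H4c genes) and held 63 of the 40205 genes in the count files. It consisted of 5 genes for the linker histone H1, 17 for H2A, 17 for H2B, 12 for H3 and 12 for H4, and all 63 were found by symbol in the GENCODE annotation. The cells were wild-type C57BL/6J NSCs, pooled by fetal sex within a pregnancy from the dorsal telencephalon at gestational day 12.5 and grown as neurospheres to passages 7 to 10; the methods name the Ai14 reporter line as the source of the mice. A female (F) and a male (M) culture from each of 3 pregnancies (sets 3, 4 and 5) gave 6 cultures, named 3F to 5M. Each culture was kept in control medium (0 mg/dL) or with ethanol at 120 or 320 mg/dL until day 5, with a medium change on day 3. Each culture and dose gave 1 cell library and 1 EV library, giving 18 EV and 18 cell libraries, 3 for each sex and dose in EVs and 3 in cells. All cultures were serum-free and mitogen-driven, and the EVs were what remained after filtration and ultracentrifugation of the medium, a fraction defined by size and sedimentation.

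The 4 core histones (H2A, H2B, H3 and H4) form the spool around which DNA is wound, and H1 binds the linker DNA between spools. Their replication-dependent genes lie in clusters, have mostly no introns, and are transcribed when DNA is copied in S phase, so that their RNA is known as a mark of dividing cells. Unlike other messenger RNAs, these transcripts end in a conserved stem-loop in place of a poly(A) tail, which the stem-loop binding protein (encoded by Slbp) holds during processing, translation and decay. In the fetal cortex the NSCs of the ventricular zone divide often, and their neuronal daughters leave the cycle. The libraries were made from RNA depleted of ribosomal RNA, without poly(A) selection according to the protocol given, so transcripts with no tail could be sequenced.

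The stem-loop is the feature that sets this gene group apart at the level of RNA, and it was read from the GRCm39 genome. Within 150 bases after the stop codon, the 16-base histone stem-loop consensus, searched on the sense strand only, was present in 58 of 63 members (92.1%) and in 69 of 21647 protein-coding genes (0.319%) of the same window. It began 22 to 59 bases after the stop codon (median 32). A match describes these bases and was not tested for function. The sequences below are those of 6 genes to which the results return. Capitals mark the 16 bases of the stem-loop, and 5 bases are shown on each side.
H1f4, chr13:23805760-23805785, minus strand: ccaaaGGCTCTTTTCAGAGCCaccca
H2bc4, chr13:23868625-23868650, plus strand: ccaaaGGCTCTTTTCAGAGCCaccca
H3c7, chr13:23729097-23729122, plus strand: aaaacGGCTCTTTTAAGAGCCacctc
H3c13, chr3:96176446-96176471, plus strand: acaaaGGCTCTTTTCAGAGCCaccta
H4c1, chr13:23944778-23944803, minus strand: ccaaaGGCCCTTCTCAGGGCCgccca
H4c4, chr13:23765928-23765953, plus strand: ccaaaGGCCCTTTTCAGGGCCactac

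The 16 bases shown for H1f4, H2bc4 and H3c13 were the most frequent form and were shared by 36 members. All 46 matched members outside the H4 family began the stem with GGCTC. All 12 H4 genes began it with GGCCC (10 genes) or GGTCC (2 genes), and H4c1 alone carried the form shown. No match lay within the window of H2ac22, H2bc21, H2bc22, H2bc23 and H2bc24, which says only that these letters were not found there.

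The members lie in 2 clusters on GRCm39, with 53 genes on chromosome 13 (chr13:21899933-24118834) and 10 on chromosome 3 (chr3:96127181-96177448). H2ac1 and H2bc1 had 0 counts in every library. Another 8 (H2ac18, H2ac19, H2ac23, H2ac24, H2bc23, H2bc24, H3c14 and H3c15) never exceeded 20 counts, and reads from near-identical copies such as H3c14 and H3c15 cannot be assigned to either. The remaining 53 had more than 20 counts in some library, and the same 53 passed the filter on low counts between EVs and cells. Coding sequences of the others are also alike in part. Of the 75-base stretches in the coding sequence, 95.1% of those of H2bc4 (mostly with H2bc8) and 93.7% of those of H3c13 (with the predicted gene Gm20634) occur elsewhere, against 0% for H2bc21 and H4c14, so values of single members carry that uncertainty. H3c13 also overlaps Gm20628 and Gm42743, H2bc4 overlaps H2ac6, and H4c4 overlaps H2bc6.

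An EV library held between 959217 and 5509952 counts and a cell library between 26566061 and 55282322, so histone genes had far fewer counts in EVs. Levels are given as CPM (counts divided by library size, scaled by TMM, the trimmed mean of M values). The Y-linked gene Ddx3y separated the sexes in cells, with 31.3 to 77.1 CPM in males and 0.177 to 0.433 in females, and in EVs its ranges overlapped slightly (3.27 to 15.1 and 0 to 3.39). NSC markers summed to 2738 to 4248 CPM in cells, mostly from Vim, Slc1a3 and Fabp7 (means of 1200, 870 and 732 CPM). Sox2, also on that list, had 0 counts in every library. Markers of red blood cells were near 0 (0.039 to 0.32 CPM in cells, at most 5.092 in EVs), as were those of microglia in cells (0.552 to 0.978 CPM; 1.092 to 16.55 in EVs).

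Per kilobase of coding sequence, H4c4 had the highest mean level of the group in cells (337 CPM per kb) and H1f4 in EVs (289 CPM per kb). H4c4 encodes H4 and had rank 4 in EVs (150 CPM per kb). H1f4 and H1f2, which encode linker histones, had ranks 2 and 3 in cells (238 and 213 CPM per kb). H2bc21 was the lowest of the 53 in cells (8.77 CPM per kb, rank 53) and ranked 48 in EVs (15.4 CPM per kb).

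The level of histone RNA in cells differed mainly by culture. The summed CPM of the 63 genes in cell libraries was 1751, 2882 and 2597 at 0, 120 and 320 mg/dL in culture 3F. It was 4116, 2653 and 3103 in 3M and 1880, 2358 and 2346 in 4F. It was only 601, 630.6 and 868.9 in 4M, then 298.6, 588.5 and 588 in 5F, and 450.5, 471.9 and 477 in 5M. The 9 libraries of 3F, 3M and 4F were thus all above the 9 of 4M, 5F and 5M, with no overlap, and the line fell between sets 3 and 5 and between the female and male culture of set 4. In these bulk libraries, fewer dividing cells and less histone RNA in each cannot be told apart.

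EV libraries spanned a narrower range and did not follow the cells. Their summed CPM was 1377, 1871 and 2101 in 3F, 1055, 1045 and 708.6 in 3M, and 1126, 903.1 and 1085 in 4F. In the cultures with low levels in cells it was 1453, 1211 and 1101 in 4M, 1081, 1326 and 1632 in 5F, and 741.7, 1026 and 1224 in 5M. The culture means differed 7.06-fold in cells and 1.9-fold in EVs.

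**Figure D1:**
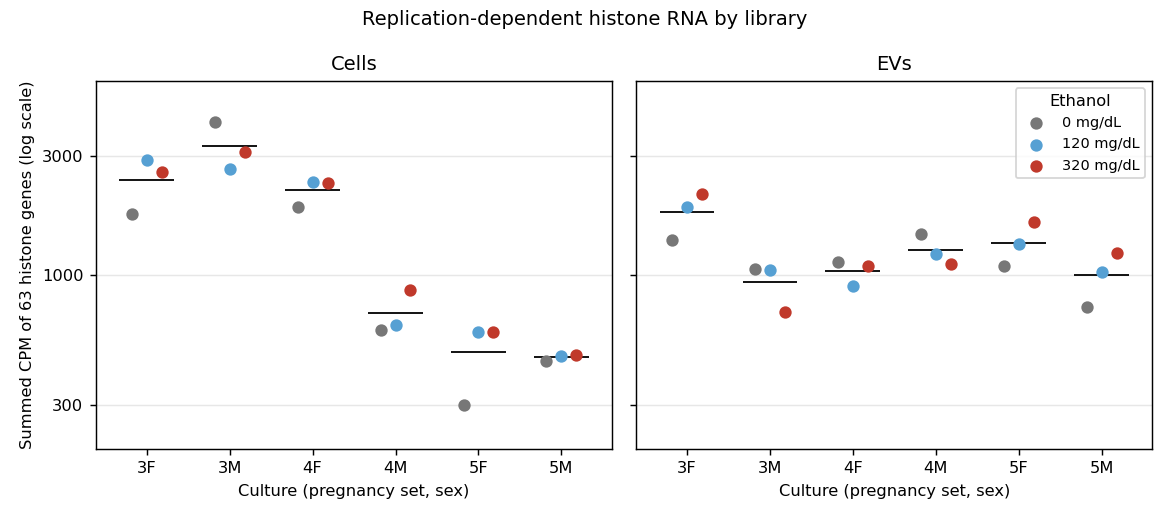
Summed CPM of the 63 replication-dependent histone genes (vertical axis, log scale) in each library, by culture (horizontal axis) and ethanol dose (colour), with cells in the left panel and EVs in the right; black lines are the mean of 3 doses. In cells the points of 3F, 3M and 4F (1751 to 4116) lie above all those of 4M, 5F and 5M (298.6 to 868.9), while EV points lie between 708.6 and 2101.

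Gene by gene, the spread between cultures was wide in cells and ordinary in EVs. The highest culture mean was a median 9.82 times the lowest over the 53 members in cells, against 1.9 over the 15281 genes tested. In EVs it was 2.17, against 2.28. The spread was wider in cells than in EVs for 52 of 53 members (98.1%) and for 33.2% of genes whose EV spread could be computed. The highest cell level was in 3M for 49 members and in 3F for the other 4. Among the most abundant members, H3c3 (an H3 gene) varied 18.6-fold in cells and 1.56-fold in EVs. H1f3 varied 16.1-fold in cells and 3.19-fold in EVs. H4c4 varied less, 4.04-fold in cells and 1.44-fold in EVs.

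H2bc21, one of the 5 genes without the stem-loop in its window, varied least in cells (1.51-fold), and its 1.33-fold in EVs was also low. H2bc4 followed in cells with 2.39-fold. These 2 were singled out here after their values were seen.

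Other genes of DNA replication moved with the histones between cultures, but less. The summed level of 30 S-phase genes (polymerase, helicase and nucleotide synthesis genes and the like) in cells was 1150 CPM ± 81.5 (SD, n = 3 doses) in 3F, 1330 ± 156 in 3M and 898 ± 75.2 in 4F. It was 378 ± 19.5 in 4M, 379 ± 49.4 in 5F and 378 ± 37.8 in 5M. These fall in the same 2 sets of cultures as the histone sums. The cell culture means thus differed 3.52-fold for S-phase genes, 1.29-fold for histone RNA processing genes and 1.22-fold for replacement histones, which are made outside S phase too. In EVs the S-phase sum, which drew heavily on Ccne2 and E2f1 (means of 226 and 150 CPM), differed 1.67-fold. Neuronal markers differed 1.98-fold between cell cultures, NSC markers 1.35-fold and glial markers 1.75-fold, and the part of these shifts in cell makeup was not tested. The neuronal sum was mostly Map2 (mean 619 CPM in cells), with Gap43 at 70.5, Dcx at 6.14 and Tubb3 at 4.78 CPM.

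The study asked how the RNA of EVs differs from that of the cells of origin. In a fit pooled over all cultures, few histone genes passed as different between EVs and cells. The cultures differed in opposite directions, as given below, so the pooled count does not show how many genes differed within a culture. In edgeR, with terms for sex and dose, 16 of 53 members passed an adjusted p of 0.05 (30.2%), against 80.5% of all genes tested. Of these, 14 were lower in EVs (background 42.2%) and 2 were higher (background 38.4%). The median member log2 fold change was -0.59, against -0.08 over all genes, and 43 of 53 were below 0. The split moved with scaling, with 2 higher and 9 lower with median-of-ratios factors, 0 and 45 with library totals, 0 and 42 with no filter on low counts, and 4 and 12 in DESeq2. This fit takes the 3 doses of each of 6 cultures as independent libraries, so its p-values, with n = 18, are too small. With paired EV and cell libraries kept together as a block, 11 members passed, 5 higher and 6 lower, and the median was 0.04. No member had EV and cell ranges that did not overlap (background 23.8%).

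By family, 6 of 12 tested H4 genes and 5 of 10 H3 genes passed as lower, near the background of 42.2%. So did 2 of 14 H2B genes, 1 of 5 H1 genes and 0 of 12 H2A genes. Those that passed as higher (background 38.4%) were 1 H3 gene (H3c13) and 1 H2B gene (H2bc21). Medians of the log2 fold change were -0.48 for H1, -0.41 for H2A, -0.64 for H2B, -0.85 for H3 and -0.65 for H4. Both higher genes lie in the chromosome 3 cluster, where the median of 6 tested members was 0.14, against -0.63 for 47 on chromosome 13.

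The largest falls that pointed the same way in all 6 cultures were in H4 genes. H4c1 ran from 3.52 to 16.6 CPM in EVs (median 8.23, on 4 to 50 counts) and from 7.13 to 81.9 in cells (median 24.1, on 368 to 4649 counts). The ranges overlapped, and the EV libraries lay mostly below. Its log2 fold change was -1.90 ± 0.31 (SE, n = 18 each; edgeR adjusted p = 1.06e-06). H4c4, the most abundant H4 gene, ran from 31 to 64.5 CPM in EVs (median 46.4) and from 28.1 to 231 in cells (median 77.5). It changed by -1.17 ± 0.23 (adjusted p = 1.67e-05). H4c3 ran from 12.2 to 32 CPM in EVs (median 17.1) and from 12.3 to 107 in cells (median 33.4), and its change was -1.12 ± 0.24 (adjusted p = 8.99e-05). For both, the cell libraries of the cultures with high histone RNA reached far above any EV library.

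H2bc4, an H2B gene, also fell in all 6 cultures, with 12.6 to 39.2 CPM in EVs (median 17.1) and 19.5 to 67.3 in cells (median 39.8). Its log2 fold change was -0.91 ± 0.16 (adjusted p = 5.04e-06). It and the other 3 are the only members lower in every culture, 4 of 53, where 32.4% of all genes were. In an edgeR fit within set 5, H4c4 (-0.16 ± 0.15, adjusted p = 0.36) and H4c3 (-0.28 ± 0.17, adjusted p = 0.161) did not pass, while H4c1 and H2bc4 did. The difference of H4c4 was only -0.027 in 5F and -0.228 in 5M. H3c7, chosen after its values were seen, had the largest fall among H3 genes, -1.64 ± 0.40 (adjusted p = 0.000407), but was higher in EVs of 3 cultures. It ran from 3.15 to 14.1 CPM in EVs (median 7.86) and from 2.76 to 77 in cells (median 18.5).

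H2bc21 was the only member higher in EVs in all 6 cultures, where 30.9% of all genes were. It ran from 1.7 to 9.97 CPM in EVs (median 5.57, on 1 to 33 counts) and from 1.91 to 4.45 in cells (median 3.4, on 79 to 288 counts). Its log2 fold change was 0.82 ± 0.13 (adjusted p = 8.4e-07), but 0.042 with library totals (adjusted p = 0.829) and 0.21 with no filter (adjusted p = 0.21), so its call depends on the scaling. H3c13, named after its values were seen, had the largest rise, 1.27 ± 0.35 (adjusted p = 0.0014), and was higher in 5 of 6 cultures. It ran from 12.6 to 67.9 CPM in EVs (median 21.9) and from 2.26 to 35.9 in cells (median 10.1).

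The most abundant H1, H2A and H2B genes did not pass, and their intervals are wide. H1f4 ran from 84.1 to 373 CPM in EVs (median 172) and from 37.9 to 344 in cells (median 143), with a log2 fold change of 0.25 ± 0.26 (adjusted p = 0.376). H2ac15, the most abundant H2A gene, had 0.23 ± 0.30 (adjusted p = 0.473). H2bc18 had -0.46 ± 0.31 (adjusted p = 0.173). H1f3, H2ac4, H2ac8, H2bc3, H3c6 and H3c10 lay between -0.63 and 0.16 and did not pass. H1f2 (-0.48 ± 0.22, adjusted p = 0.0443), H3c3 (-1.32 ± 0.41, adjusted p = 0.00365) and H4c6 (-0.89 ± 0.38, adjusted p = 0.0308) passed as lower.

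**Figure D2:**
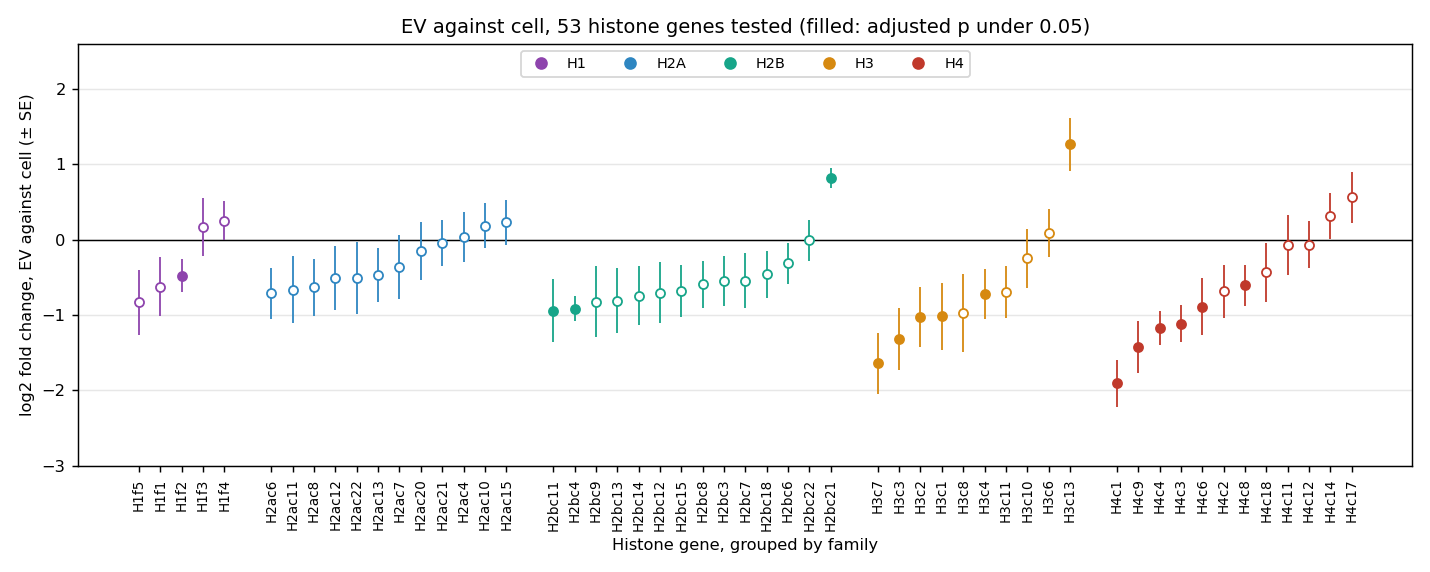
Log2 fold change of EV against cell (vertical axis, ± SE from edgeR, 18 libraries each) for the 53 histone genes tested, grouped by family and ordered within it (horizontal axis); filled points passed an adjusted p of 0.05. H4c1 is lowest (-1.90) and H3c13 highest (1.27), and no H2A point is filled.

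The pooled comparison hides opposite differences in different cultures. In 3F, 3M and 4F, 44, 52 and 51 of 53 members were lower in EVs, with median log2 differences of -0.70, -1.89 and -1.31. In 4M, 5F and 5M, 47, 48 and 49 members were higher in EVs, with medians of 0.98, 1.60 and 1.34. The median over all genes tested stayed between -0.07 and 0.07 in each culture. The 3 cultures in which histone RNA was lower in EVs are those with the high level in cells. The difference contains the cell level, and culture means of the histone sum differed 7.06-fold in cells and 1.9-fold in EVs. Its sign is thus no result separate from the cell levels given above.

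**Figure D3:**
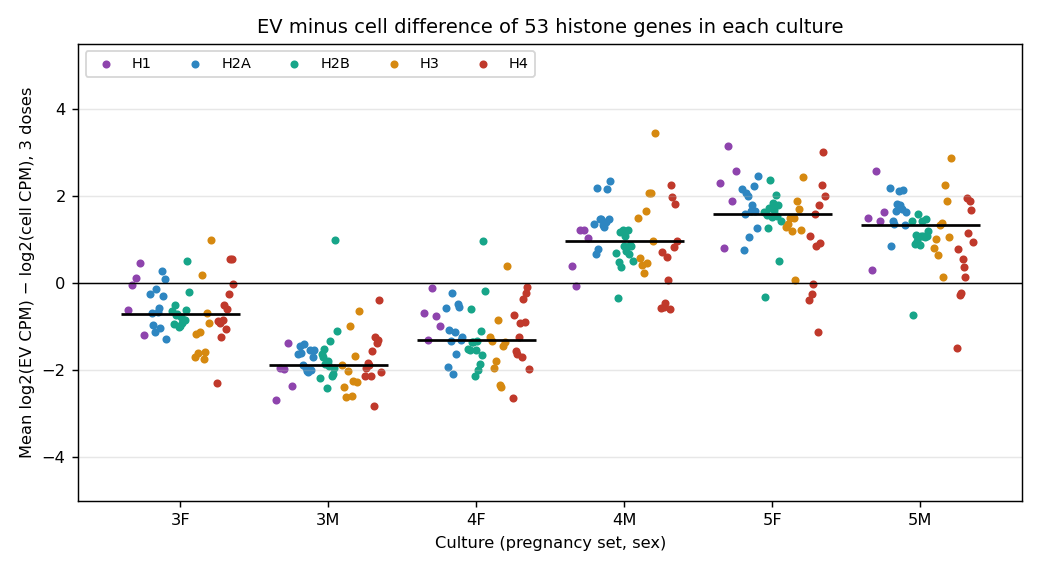
Difference of log2 CPM between EVs and cells (vertical axis, mean of 3 doses) for the 53 histone genes (points, coloured by family) in each culture (horizontal axis), with the median as a black line. The medians are -0.70, -1.89 and -1.31 in 3F, 3M and 4F and 0.98, 1.60 and 1.34 in 4M, 5F and 5M.

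Fits within each pregnancy, added after this was seen and made from the same libraries, gave the same picture. In set 3, 41 members passed as lower in EVs (background 38.1%) and 1 as higher (background 32.9%). In set 5, 47 passed as higher (background 35.3%) and 2 as lower (background 38.4%). In set 4, where the female and male culture differed, 11 passed (background 69.1%), 5 higher and 6 lower. Each such fit treats the 3 doses of a culture as independent, so its p-values are too small. All 5 H1 and all 12 tested H2A genes passed as higher in set 5, and 3 and 9 of them passed as lower in set 3. H4c1 was lower and H2bc21 higher in all 3 sets, but both were named because they moved one way in all 6 cultures. Their direction within the sets was therefore given in advance and is no further evidence. H4c1 changed by -2.22 ± 0.25, -1.39 ± 0.34 and -0.97 ± 0.24 in sets 3, 4 and 5 (adjusted p = 4.23e-06, 0.00367 and 0.00307). H2bc21 changed by 0.79 ± 0.21, 0.98 ± 0.28 and 0.74 ± 0.19 (adjusted p = 0.00398, 0.0079 and 0.00369). H1f3 was -0.83 ± 0.40 in set 3 (adjusted p = 0.079) and rose by 2.86 ± 0.18 in set 5 (adjusted p = 8.37e-08).

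The difference between pregnancies was also tested with the counts of the doses of a culture added, which left 12 sums and 3 residual degrees of freedom. None of 54 members passed an adjusted p of 0.05 in edgeR for a location by pregnancy term (background 0%), and 33 had an unadjusted p under 0.05 (background 6.12%). The EV-to-cell log2 difference was higher in set 5 than in set 3 for 53 of 54 members (54.6% of all genes), by a median of 2.37 (0.11 over all genes). This term was chosen after the opposite directions of sets 3 and 5 were seen in the same libraries. The direction was therefore known beforehand and is no further evidence. Members share their libraries and are not replicates.

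The makeup of the histone RNA also differed between EVs and cells, and shares of counts do not depend on the scaling of libraries. H4 made up 17.7% ± 3.04 (SD, n = 18) of the histone counts in EVs and 23.4% ± 2.68 in cells, and its share was lower in EVs in 15 of 18 pairs. H2B made up 18.4% ± 1.56 and 21.1% ± 1.07, lower in 16 of 18 pairs. H1 made up 37% ± 6.92 in EVs and 31.8% ± 3.55 in cells, higher in 13 of 18 pairs. H2A made up 13.5% ± 1.68 and 11.1% ± 1.99, higher in 14 pairs. The H3 share was 13.5% ± 3.42 and 12.7% ± 2.68, with 9 pairs in each direction. These pairs come from 6 cultures, and the family means are given as a description.

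Within a family, the shares of H4c1, H4c4, H4c17, H3c7 and H3c13 lay on one side in every pair. H4c1 made up 4.39% ± 1.47 of H4 counts in EVs and 9.92% ± 1.17 in cells, and the EV share was lower in 18 of 18 pairs. H4c4 made up 22.6% ± 2.91 and 32.6% ± 4.68, also lower in 18 of 18. H4c17, named after its values were seen, made up 5.36% ± 1.17 in EVs and 1.96% ± 0.495 in cells, higher in 18 of 18. All of its 75-base coding stretches (100%) occur elsewhere. The shares of H4c11 and H4c14 were higher in 17 of 18 pairs, and that of H4c3 was lower in 17. H3c7 made up 5.19% ± 1.78 of H3 counts in EVs and 11% ± 1.37 in cells, lower in 18 of 18. H3c13 made up 18.1% ± 5.28 and 6.37% ± 1.23, higher in 18 of 18. H1f2 fell from 33.5% ± 8.95 of H1 counts in cells to 21.5% ± 2.55 in EVs (lower in 16 of 18), while H1f3 was 16.2% ± 5.34 in cells and 23.8% ± 4.15 in EVs (higher in 14 of 18). H2bc4 made up 9.07% ± 2.49 of H2B counts in EVs and 17% ± 8.68 in cells, lower in 14 of 18 pairs. H2bc21 made up 2.79% ± 1.3 and 1.84% ± 1.49, higher in 13 of 18.

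Of 22 tested genes that make and process histone RNA, 15 passed as lower in EVs and 6 as higher, where 42.2% and 38.4% of all genes did. Slbp (stem-loop binding protein) fell by 1.29 on the log2 scale, with 4.98 to 10.6 CPM in EVs and 10.7 to 39.2 in cells. Npat, the activator of histone gene transcription, fell by 1.33, from 35.8 to 60.6 CPM in cells to 6.64 to 25.1 in EVs. Casp8ap2 (-0.76), Lsm10 (-0.88), a subunit of the U7 particle that cuts the transcript end, and Eri1 (-1.17), a nuclease that trims the stem-loop, passed as lower too. The 6 higher genes were Lsm11, Zfp473, Coil, Lsm4, Hinfp and Tut7, the last 4 named after their values were seen. Lsm11, the other U7-specific subunit, was at 47.4 to 259 CPM in EVs and 3.96 to 10.6 in cells (log2 fold change 4.47 ± 0.20, adjusted p = 5.74e-21). Zfp473, a zinc finger protein of the same pathway, changed by 1.87 ± 0.26, on 0 to 8 counts in EVs. Coil changed by 1.39, Lsm4 by 1.32, Hinfp by 0.42 and Tut7 by 0.26. These genes were examined with TMM scaling alone, so small changes such as those of Hinfp and Tut7 may depend on it.

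Replacement histone genes are expressed outside S phase too, and most of their transcripts carry poly(A) tails. H3f3b, an H3.3 gene, ran from 30.5 to 72.8 CPM in EVs and from 187 to 338 in cells, with no overlap, and fell by 2.27 on the log2 scale. H3f3a (-1.62), H2az1 (-1.17) and H1f0 (-0.92) were lower as well, H2az2 did not pass (0.17, adjusted p = 0.123), and Cenpa, the centromeric H3, was higher (0.93). Of 10 tested genes on that list 7 passed as lower and 2 as higher (backgrounds 42.2% and 38.4%), and the list was not tested against the clustered genes. These genes too were examined with TMM scaling alone. The summed replacement level was lower in EVs in all 18 pairs, 6 in each of sets 3, 4 and 5. H3f3b was the largest part of this sum in cells (mean 259 CPM, against 53.6 in EVs), and the sum without it was not examined. The histone sum was lower in EVs in all 6 pairs of set 3, higher in all 6 of set 5, and split 3 to 3 in set 4.

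Whether ethanol moved histone RNA was asked with each culture as its own control. No histone gene passed an adjusted p of 0.05 in cells or EVs at either dose in edgeR or in DESeq2. The background was 0% of genes in cells at 120 mg/dL, 0.0393% in cells at 320, 0.00842% in EVs at 120 and 0.0842% in EVs at 320. In cells at 320 mg/dL, 52 of 53 members had a positive log2 fold change, with a median of 0.35 (-0.01 over all genes). An unadjusted p under 0.05 was reached by 20 of them (background 8.57%), and the lowest adjusted p was 0.425. At 120 mg/dL, 49 of 53 were positive with a median of 0.21, and 0 had an unadjusted p under 0.05 (background 2.5%). Members come from the same libraries and are not replicates of a dose.

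In cells, 5 of the 6 cultures lay above their controls, by little in 5M. Both doses of a culture are set against the same single control library, so their folds are not independent. The lowest control was that of 5F (298.6 CPM) and the highest that of 3M (4116 CPM). Against their own controls, summed histone CPM was 1.48-fold in 3F, 1.25-fold in 4F, 1.45-fold in 4M, 1.97-fold in 5F and 1.06-fold in 5M at 320 mg/dL, and 0.754-fold in 3M. At 120 mg/dL it was 1.65, 1.25, 1.05, 1.97 and 1.05-fold in the same 5, and 0.645-fold in 3M. In 3M, the culture with the highest control level, 0 of 53 members were higher at either dose. Hence no member was higher in all 6 cultures at 320 mg/dL (background 1.39%) or at 120 (background 1.18%). H4c1 had the largest change among H4 genes at 320 mg/dL (0.51 ± 0.18, adjusted p = 0.427), and H4c4 changed by 0.16 to 1.07 in 5 cultures and by -0.32 in 3M. H2bc21 was the single member below 0 (-0.30 ± 0.12, adjusted p = 0.489), and was lower in 5 of 6 cultures.

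**Figure D4:**
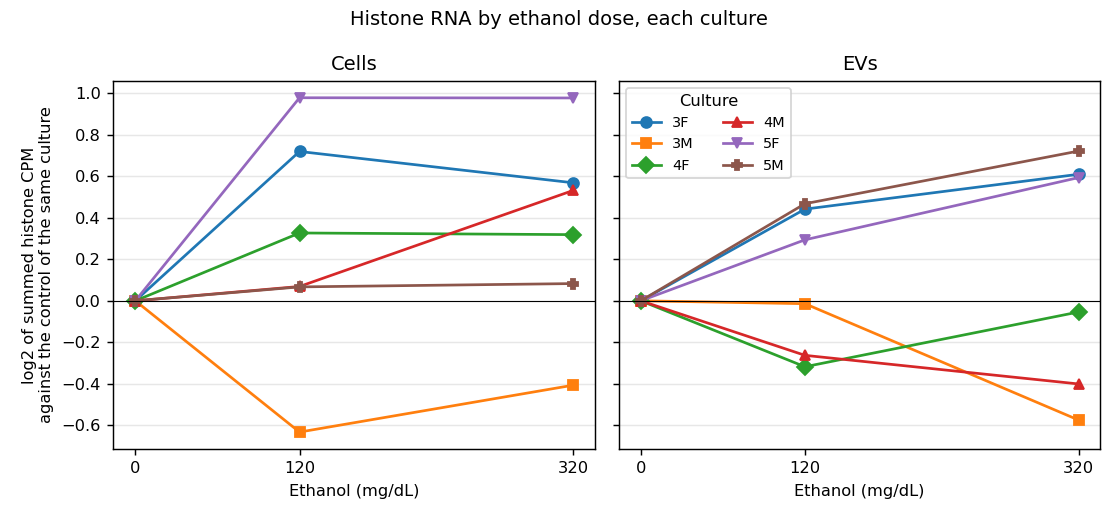
Log2 of summed histone CPM against the control library of the same culture (vertical axis) by ethanol dose in mg/dL (horizontal axis), 1 line for each culture, with cells in the left panel and EVs in the right. In cells all cultures but 3M lie above 0 at both doses; in EVs 3 cultures lie above 0 and 3 below.

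In EVs the cultures divided evenly. At 320 mg/dL, summed histone CPM was 1.53-fold of control in 3F, 1.51-fold in 5F and 1.65-fold in 5M, and 0.671-fold in 3M, 0.963-fold in 4F and 0.757-fold in 4M. Median member changes were -0.01 at 120 mg/dL and 0.04 at 320. An unadjusted p under 0.05 was reached by 1 of 52 members at 120 mg/dL (background 6.26%) and by 4 of 52 at 320 (background 11.9%). All 5 H1 genes were above 0 at both doses, with medians of 0.16 and 0.38, of which H1f3 was highest (0.43 ± 0.23 and 0.57 ± 0.23, adjusted p = 0.813 and 0.32). No member was higher in EVs of all 6 cultures at either dose (backgrounds 1.69% at 120 mg/dL and 2.97% at 320). H2ac7 was lower in all 6 at 120 mg/dL (background 1.65%) and H2bc21 at 320 (background 5.41%). H2bc21 fell there by 0.13 to 1.43 on the log2 scale (-0.70 ± 0.25 in the fit, adjusted p = 0.274).

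The EV-to-cell ratio leaned downward with ethanol for most members. At 120 mg/dL, 47 of 53 ratios were below control, with a median log2 change of -0.29 (-0.03 over all genes), and at 320 mg/dL 43 of 53 were, with a median of -0.39 (-0.03). No member passed an adjusted p of 0.05 at 120 (background 0.0107%) or 320 mg/dL (background 0%) in edgeR or DESeq2. An unadjusted p under 0.05 was reached by 5 (background 3.35%) and 16 (background 5.37%). At 320 mg/dL the median was -0.58 for H2A, -0.51 for H3, -0.40 for H4, -0.26 for H2B and 0.01 for H1. H3c10 had the lowest p (-1.02 ± 0.22, adjusted p = 0.362). The cultures did not all move down. The EV minus cell log2 difference of summed histone CPM rose at 120 mg/dL in 3M (-1.963 to -1.344) and 5M (0.719 to 1.121). At 320 mg/dL it rose in 5M (0.719 to 1.359) and slightly in 3F (-0.346 to -0.306). In the other cultures it fell at each dose. Counts of members are not counts of replicates. The ratio shares its libraries with the comparisons in cells and in EVs, so it is not a separate measurement.

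By sex, 8 of 52 members passed in EVs (15.4%), a share near the background of 11.1%. All 8 were higher in females (background 7.03%), and they were 3 of 5 H1 genes, 3 H2B genes, 1 H2A gene and 1 H4 gene. H1f1 ran from 22.4 to 57.3 CPM in female EVs (median 42.4) and from 10.4 to 24.7 in male EVs (median 17.7). These ranges overlapped only at their ends, and the log2 fold change was 1.18 ± 0.19 (n = 9 each; edgeR adjusted p = 0.00837). H1f3 ran from 83.1 to 242 CPM in females (median 129) and from 44.8 to 124 in males (median 68), a difference of 1.13 ± 0.21 (adjusted p = 0.0111 in edgeR). H4c14 differed by 0.93 ± 0.19 (adjusted p = 0.014 in edgeR). All 3 were higher in the female EVs of each pregnancy, but they were named for that, so it is no further evidence. The 9 libraries of a sex come from 3 cultures, and with the doses of a culture added no member passed.

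In cells no member passed by sex in edgeR or DESeq2 (background 5.83%), and 0 had an unadjusted p under 0.05 (background 22.3%). The direction in cells differed between pregnancies. For H1f1 the female minus male log2 difference in cells was -0.66 in set 3, 2.04 in set 4 and 0.10 in set 5, against 1.43, 0.96 and 0.91 in EVs. For H1f3 it was -0.50, 1.90 and 0.42 in cells, against 1.58, 0.56 and 1.00 in EVs. Both genes were named for their single direction in EVs, so they do not show that EVs were steadier than cells. In EVs too the direction differed between pregnancies for other members. There the difference in sets 3, 4 and 5 was 1.43, -0.25 and 0.67 for H2ac15 and 0.71, -0.58 and 0.43 for H2bc18. H4c4 was higher in female EVs of each set (0.17, 0.35 and 0.19). Leaving out set 3 turned the EV calls to 3 higher and 5 lower in females, and leaving out set 5 left 0 members.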

How the data were processed

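RNA was sequenced from 18 EV and 18 cell libraries of 6 cultures at 3 ethanol doses. Reads had been adapter-trimmed and deduplicated by the authors, placed on mm39 by STAR and assigned to genes by HTSeq, and the count per gene and library was used as deposited. Deduplication can lower counts of short, abundant transcripts such as these. The annotation release, the strand setting and the treatment of reads that match several copies are not given in the sources used here. Depth ranged between 959217 and 5509952 counts for EV libraries and between 26566061 and 55282322 for cell libraries.

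Counts were tested in R 4.3.3 with edgeR 4.0.16 (filterByExpr, minimum count 10 and minimum total 15; TMM scaling; quasi-likelihood F tests; Benjamini-Hochberg adjusted p under 0.05 over all genes), with DESeq2 1.42.0 as an alternative. The EV against cell model held sex and dose as further terms, ethanol was tested with the culture as a block, the EV-to-cell ratio as an interaction with the pair as a block and a location by culture term, and sexes with a term for dose. The SE is the log2 fold change over the root of F. Differences for single pairs used log2 of CPM with 0.5 counts added. Genes and stem-loops were placed with GENCODE on GRCm39 (the same build as mm39), in Python. Tests were tested on simulated data, and no 2 libraries held identical values.

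EV and cell libraries of a culture and dose, and the doses of a culture, share their cells by design. The correlation of their deviations from the condition mean had a median of 0.0815 for EV and cell pairs (6 of 18 over 0.1), 0.258 and 0.31 for EV libraries at 120 and 320 mg/dL with their control, and 0.701 and 0.606 in cells. For female and male libraries of a pregnancy it was 0.138 in EVs (5 of 9 over 0.1) and 0.366 in cells (6 of 9).

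Named genes are, per family, the 3 with the highest mean CPM, and per comparison up to 3 in each direction that passed and moved the same way in all 6 cultures (3 pregnancies for sex), with the genes of histone processing and replacement named above. The histone genes, lists, tests and alternatives were chosen with earlier results of these data known. Alternatives were median-of-ratios factors, library totals, no filter, leaving out each pregnancy, adding or removing blocks, controls alone, only the compared doses and sums over doses. Fits within a pregnancy, without the 4 EV libraries of lowest depth, and with a location by pregnancy term were chosen after seeing the data.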

Additional observations from a re-analysis of the deposited data

Results flagged for a closer look

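The EV minus cell log2 difference of summed histone CPM took opposite signs in pregnancy sets 3 and 5, where every pair of libraries in one set lay below 0 and every pair in the other above it. The mean was -1.119 in set 3 and 1.283 in set 5 (6 pairs each). The same held for H2A (-1.115 and 1.808), H2B (-1.297 and 1.141), H3 (-1.277 and 1.416) and H4 (-1.246 and 0.508). The difference between these sums was not tested, and the pairs of a set come from 2 cultures. Each value contains the cell level, which varied more between cultures than the EV level did.

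In 3 of 126 groups of 6 libraries 1 library stood apart from the others, where chance gives about 1 in 20. Summed H4 CPM of EVs at 320 mg/dL was highest in 3F, at 332.7 CPM. H4c6 in the same library was at 38.48 CPM. H3c10 in control EVs was highest in 4M, at 39.73 CPM.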

How the results depend on the processing

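Of 87 alternatives to the counts of histone genes in 9 comparisons, 73 left the count within 1.5 times and the direction as it was. Between EVs and cells the 16 calls became 45 with library totals, 42 with no filter and 5 with control libraries alone. They became 11 with the replicate block, 18 without the 4 EV libraries of lowest depth, 42 within set 3 and 49 within set 5. Over all genes 80.5% passed in the main fit, 71% within set 3 and 73.6% within set 5. The shares under the other settings are not given here, so those counts are a description. Leaving out a pregnancy gave 9 to 36 calls (9 without set 4, 36 without set 5), and 17 without set 3, where 12 were higher and 5 lower. The median log2 change of all genes was -0.08 with TMM, -0.88 with library totals, 0.46 with no filter and 1.73 in DESeq2. H2ac4 turned to -0.82 with library totals and -0.83 within set 3, and H4c6 to 0.088 without set 3 (-1.15 without set 5). Within set 5 the changes were 0.52 for H1f2, 1.69 for H2ac8, 1.59 for H2bc18, 1.51 for H2bc3, 1.02 for H3c3, 1.78 for H3c10, 1.04 for H4c6 and 0.042 for H3c7. H4c1 and H2bc4 kept their call in all 13 alternatives, H4c4 and H4c3 in 12, and H2bc21 in 11. For ethanol the count stayed 0 with and without the replicate block, except 1 member, H3c10, with a lower ratio at 320 mg/dL with no filter. By sex in EVs the 8 calls became 1 with library totals, 3 with no filter, 10 with the pregnancy as replicate block, and 0 with doses summed; leaving out a pregnancy gave 0 (set 5) to 8, and without set 3 the 8 were 3 higher and 5 lower. In cells the pregnancy block gave 0. The cause of these changes was not tested. EV depth limits H4c1 (4 to 50 counts) and H2bc21 (1 to 33 counts).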

Other observations

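Between EVs and cells 80.5% of all genes passed, 38.4% as higher in EVs and 42.2% as lower, and the lists of other genes are given beside that share. The calls on these lists are those with TMM scaling alone. Of 21 tested histone chaperone genes 5 passed as higher and 13 as lower in EVs, and of 30 S-phase genes 4 and 14 (60% in all, below the share over all genes). Of 11 NSC markers 3 passed as higher and 7 as lower, of 5 neuronal markers 0 and 4, and of 7 glial markers 2 and 2 (57.1% in all). All 4 tested endothelial and mural markers and the 1 tested microglial marker were higher, and of 2 meningeal markers 1 passed in each direction. The summed S-phase level was lower in EVs in 6 of 6 pairs of set 3, higher in 5 of 6 of set 4 and higher in 6 of 6 of set 5. In EVs this sum drew heavily on Ccne2 and E2f1 (means of 226 and 150 CPM, against 22.6 and 21.7 in cells). It does not stand for the S-phase genes as a class, of which more passed as lower than as higher.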
